A study of Homo sapiens and Mus musculus with 19 samples.

Results

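Chromatin-associated RNA (caRNA), the RNA that stays with the chromatin pellet when nuclei are opened, was examined for 10 genes that encode the transcription factors of blood lineages. The 10 genes were GATA1, GATA2, TAL1, KLF1, NFE2, GFI1B, RUNX1, SPI1, CEBPA and MYB. They were listed by name, with no threshold on a measured value, and made up 10 of the 58721 genes in each human count table. All 10 passed the filter on low counts that left 26023 genes for testing. The cells were K562, a human leukaemia line derived from chronic myeloid leukaemia that resembles early red-cell precursors. The 4 groups were TET2 wild type (WT) with a control short hairpin RNA (shControl), TET2 WT with a hairpin against MBD6 (shMBD6), TET2 knockout (KO) with shControl and TET2 KO with shMBD6, with 3 libraries in each. TET2 encodes a dioxygenase that oxidises 5-methylcytosine, and MBD6 encodes a protein with a methyl-CpG-binding domain. By the labels and methods, every group, controls included, carried a lentiviral hairpin construct and was kept under puromycin, and a single hairpin stood for MBD6 knockdown. Another sample description of the study names small interfering RNAs for K562 libraries of this kind, so that the kind of knockdown is given here as labelled. Whether the TET2 KO cells were 1 clone was not given in the sources used here. The labels do not say that the 3 libraries of a group came from separate cultures, so that the p-values measure only the spread between these libraries.

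Lineage transcription factors bind short motifs in enhancers and promoters and hold a blood cell in its lineage, partly by keeping the factors of other lineages low. GATA1, TAL1, KLF1, NFE2 and GFI1B act in red-cell and platelet precursors, where GATA1 and TAL1 sit in a complex bridged by LMO2 and LDB1. GATA2, RUNX1 and MYB act in stem and progenitor cells, and GATA1 takes over sites held by GATA2 as red cells mature. SPI1 and CEBPA act in granulocyte and monocyte precursors, and the SPI1 and GATA1 proteins oppose each other.

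Gene counts per library ran from 52158403 to 102070223, and the number of genes with at least 1 count was 28970 to 31932 in TET2 WT shControl, 33529 to 34601 in TET2 WT shMBD6, 28400 to 29073 in TET2 KO shControl and 24480 to 26963 in TET2 KO shMBD6. The mean level of 415 olfactory receptor genes, which blood cells do not use, was taken as the background of the assay. It stood at 0.0809, 0.0918, 0.117 and 0.0886 CPM (counts scaled to an equal TMM-adjusted library total) per kb of gene span in the same order of groups. MBD6 itself was measured at 43.3, 42.7 and 38.6 CPM in the TET2 WT shControl group, 30.9, 25.7 and 27.2 CPM in the TET2 WT shMBD6 group, 30.6, 30.8 and 29.4 CPM in the TET2 KO shControl group and 30.6, 38.3 and 34.2 CPM in the TET2 KO shMBD6 group. It was lower with shMBD6 in TET2 WT (log2 change -0.57 ± 0.08 SE, adjusted p = 1.83e-07), whereas in TET2 KO the change was 0.19 ± 0.08 (adjusted p = 0.0574) and the ranges overlapped. The TET2 KO libraries labelled shMBD6 thus went against their label at the level of MBD6 caRNA. Cytoplasmic MBD6 mRNA and MBD6 protein were not measured in these libraries, so that caRNA alone does not settle whether the knockdown worked. The study reports slower growth of TET2 KO K562 cells after MBD6 knockdown. Every statement below about an shMBD6 effect in TET2 KO compares libraries by their labels. TET2 was at 118 to 123 CPM in the TET2 WT shControl group and 127 to 131 CPM in the TET2 KO shControl group. It was at 117 to 125 CPM in the TET2 WT shMBD6 group and 91.6 to 100.9 CPM in the TET2 KO shMBD6 group. In TET2 KO, TET2 was lower in the libraries labelled shMBD6 than in those labelled shControl (log2 change -0.44 ± 0.04 SE, adjusted p = 7.23e-11). Counts over the whole gene do not check a knockout whose lesion leaves the transcript in place.

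Marker genes were read against the labelled cell type. The 18 red-cell genes summed to 1786 to 1839 CPM in the TET2 WT shControl group, and the 14 granulocyte and monocyte genes to 22.3 to 23.2 CPM. The 13 T-cell and B-cell genes summed to 38.1 to 40.8 CPM and the 7 epithelial, fibroblast, endothelial and liver genes to 24.3 to 25.8 CPM. The sums were not divided by gene length, so that they do not rank the lists. Of the defining red-cell markers, TFRC stood at 578 CPM, ALAS2 at 25.3 CPM and EPOR at 22.8 CPM in TET2 WT shControl. HBG2 and HBE1 were at 0 counts in all 12 libraries. They lie in an annotated stretch where 12 and 11 other genes of the same strand overlap them, and reads shared by genes of a strand were not assigned to any of them. ELANE, CYBB and GP1BB were at 0 in all 12 libraries.

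Promoter sequences are shown for 4 factors of the red-cell programme that fell together in TET2 KO shControl, with the GATA motif in capitals. Sequences were taken from RefSeq windows of 250 bases before to 50 bases after an annotated start (GRCh38.p14) and are written 5′ to 3′ on the strand of the gene. For 8 of the 10 genes at least 1 window was found, and NFE2 and SPI1 were not matched. The GATA motif was searched as AGATAA and TGATAA, and also as AGATAG and TGATAG, on both strands and occurs in 25.0% of 35116 windows of this length. KLF1 holds 2 such motifs, which begin 66 and 13 bases before the start. The upstream and the downstream GFI1B start each hold 1, the window at the upstream TAL1 start, which is shown, holds 1, and the window at the second TAL1 start (chr1:47231666-47231965) and the GATA1 window hold none.
KLF1, chr19:12887152-12887451, minus strand: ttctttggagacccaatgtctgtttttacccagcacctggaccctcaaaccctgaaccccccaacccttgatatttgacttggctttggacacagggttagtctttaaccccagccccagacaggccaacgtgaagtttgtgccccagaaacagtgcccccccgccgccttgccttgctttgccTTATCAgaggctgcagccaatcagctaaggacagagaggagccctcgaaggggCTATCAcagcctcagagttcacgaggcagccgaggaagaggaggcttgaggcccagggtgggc
GFI1B, upstream start, chr9:132945281-132945580, plus strand: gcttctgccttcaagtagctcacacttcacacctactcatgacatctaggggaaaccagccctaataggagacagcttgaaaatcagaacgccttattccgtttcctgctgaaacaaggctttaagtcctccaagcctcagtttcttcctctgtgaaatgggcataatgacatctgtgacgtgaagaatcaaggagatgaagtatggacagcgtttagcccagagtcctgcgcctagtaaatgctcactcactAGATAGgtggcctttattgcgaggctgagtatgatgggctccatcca
GFI1B, downstream start, chr9:132978444-132978743, plus strand: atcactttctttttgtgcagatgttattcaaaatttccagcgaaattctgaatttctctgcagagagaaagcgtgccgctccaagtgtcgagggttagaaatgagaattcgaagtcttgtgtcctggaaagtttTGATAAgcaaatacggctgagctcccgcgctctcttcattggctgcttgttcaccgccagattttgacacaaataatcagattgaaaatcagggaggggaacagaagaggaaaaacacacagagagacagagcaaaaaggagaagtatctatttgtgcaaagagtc
TAL1, chr1:47232286-47232585, minus strand: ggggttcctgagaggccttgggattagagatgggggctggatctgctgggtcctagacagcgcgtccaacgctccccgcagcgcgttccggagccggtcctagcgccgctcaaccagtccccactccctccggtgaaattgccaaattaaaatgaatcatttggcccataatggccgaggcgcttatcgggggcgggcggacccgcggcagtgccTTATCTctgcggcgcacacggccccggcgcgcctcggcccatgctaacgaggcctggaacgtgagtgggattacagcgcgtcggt
GATA1, chrX:48786340-48786639, plus strand: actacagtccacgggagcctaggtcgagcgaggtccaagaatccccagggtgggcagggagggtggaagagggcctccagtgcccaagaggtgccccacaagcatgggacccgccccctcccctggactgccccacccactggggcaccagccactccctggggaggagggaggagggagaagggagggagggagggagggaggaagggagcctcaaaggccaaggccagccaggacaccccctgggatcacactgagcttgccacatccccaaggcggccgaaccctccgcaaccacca
A match of letters is a description and does not show that a factor was bound there. The windows of GATA2, RUNX1, CEBPA and MYB held none of these letters either.

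The levels of the red-cell factors were highest in TET2 WT shControl. GATA1 (ENSG00000102145, chrX:48786540-48794311), the zinc-finger factor that drives red-cell and platelet development, was at 58.5, 52.8 and 51.3 CPM in the TET2 WT shControl group, 38.4, 33.2 and 34.1 CPM in the TET2 WT shMBD6 group, 35.8, 33.2 and 35.6 CPM in the TET2 KO shControl group and 46.3, 45.1 and 47.8 CPM in the TET2 KO shMBD6 group. The TET2 WT shControl libraries all lay above the other 9, and the TET2 KO shMBD6 libraries lay between them and the remaining 2 groups, which overlapped. In these bulk libraries fewer cells that express a gene and less RNA per cell cannot be told apart. Without spike-in lines, CPM are shares of the caRNA counted in a library. An unchanged amount in a larger pool of caRNA therefore cannot be told apart from them either. Falls and rises named below are changes of these shares. KLF1 (chr19:12884422-12887201), which activates adult globin and membrane genes of red cells, was at 18.1, 19.3 and 18.7 CPM in the TET2 WT shControl group, 10.98, 8.62 and 9.77 CPM in the TET2 WT shMBD6 group, 8.68, 8.15 and 6.99 CPM in the TET2 KO shControl group and 12.9, 12.2 and 11.3 CPM in the TET2 KO shMBD6 group. The order of groups was that of GATA1, with a wider gap below TET2 WT shControl.

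GFI1B (chr9:132944000-132991687) encodes a repressor that restrains progenitor genes in red-cell and platelet precursors. Its level was 47.7, 42.8 and 48.4 CPM in the TET2 WT shControl group, 29.1, 25.3 and 27.9 CPM in the TET2 WT shMBD6 group, 21.5, 23.3 and 22.8 CPM in the TET2 KO shControl group and 38.3, 44.9 and 38.5 CPM in the TET2 KO shMBD6 group. TET2 WT shControl and TET2 KO shMBD6 overlapped, and every other pair of groups was separate. NFE2 (chr12:54292111-54301015), which pairs with small MAF proteins on platelet and globin genes, was at 88.3, 81.9 and 88.3 CPM in the TET2 WT shControl group and between 46.9 and 61.5 CPM in the other 9 libraries. TAL1 (chr1:47216290-47232225), a basic helix-loop-helix factor of the GATA1 complex, was at 137, 131 and 129 CPM in the TET2 WT shControl group, 133, 125 and 122 CPM in the TET2 WT shMBD6 group, 93.1, 87.7 and 95.8 CPM in the TET2 KO shControl group and 108, 113 and 108 CPM in the TET2 KO shMBD6 group. Here the genotypes separated, and the TET2 WT groups overlapped.

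The progenitor factors varied less. GATA2 (chr3:128479427-128493201) was at 84.9, 77.4 and 74.4 CPM in the TET2 WT shControl group, 67.7, 59.5 and 61.8 CPM in the TET2 WT shMBD6 group, 84.3, 82.6 and 84.9 CPM in the TET2 KO shControl group and 76.3, 75.5 and 78.5 CPM in the TET2 KO shMBD6 group, so that only TET2 WT shMBD6 lay apart from all other groups. MYB (chr6:135181308-135219173), which sustains progenitor division, was at 543 to 554 CPM in the TET2 WT shControl group, 471 to 488 CPM in the TET2 WT shMBD6 group, 599 to 615 CPM in the TET2 KO shControl group and 472 to 517 CPM in the TET2 KO shMBD6 group. Both shMBD6 groups were below both shControl groups and overlapped each other. RUNX1 (chr21:34787801-36004667), the DNA-binding partner of CBFB, ranged from 1755 to 1773 CPM in the TET2 WT shControl group, 1694 to 1747 CPM in the TET2 WT shMBD6 group, 1608 to 1659 CPM in the TET2 KO shControl group and 1388 to 1425 CPM in the TET2 KO shMBD6 group, without overlap between any groups. The RUNX1 groups spanned only 0.33 on the log2 scale, and their coefficients of variation between libraries were 0.528% to 1.57%.

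The myeloid pair was unlike. SPI1 (chr11:47354860-47378547), an ETS factor of granulocytes, monocytes and B cells, was at 21.7, 23.4 and 25.9 CPM in the TET2 WT shControl group, 31.4, 30.4 and 32.8 CPM in the TET2 WT shMBD6 group, 36.9, 33.4 and 36.3 CPM in the TET2 KO shControl group and 38.5, 33.6 and 35.0 CPM in the TET2 KO shMBD6 group. The TET2 WT shControl libraries were below the other 9, the opposite of GATA1. CEBPA (chr19:33299934-33302534), a leucine-zipper factor of granulocytes, had 0, 6 and 8 counts in TET2 WT shControl, 38, 9 and 24 in TET2 WT shMBD6, 26, 16 and 27 in TET2 KO shControl and 0, 11 and 12 in TET2 KO shMBD6. A count of 0 allows up to 0.0415 CPM in the TET2 WT shControl library and 0.0457 CPM in the TET2 KO shMBD6 library, for counting error only. Per kb, CEBPA stood at 0.217, 1.25, 1.03 and 0.452 times the olfactory background in the 4 groups, so that its values are given for completeness and are not read as expression.

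**Figure D1:**
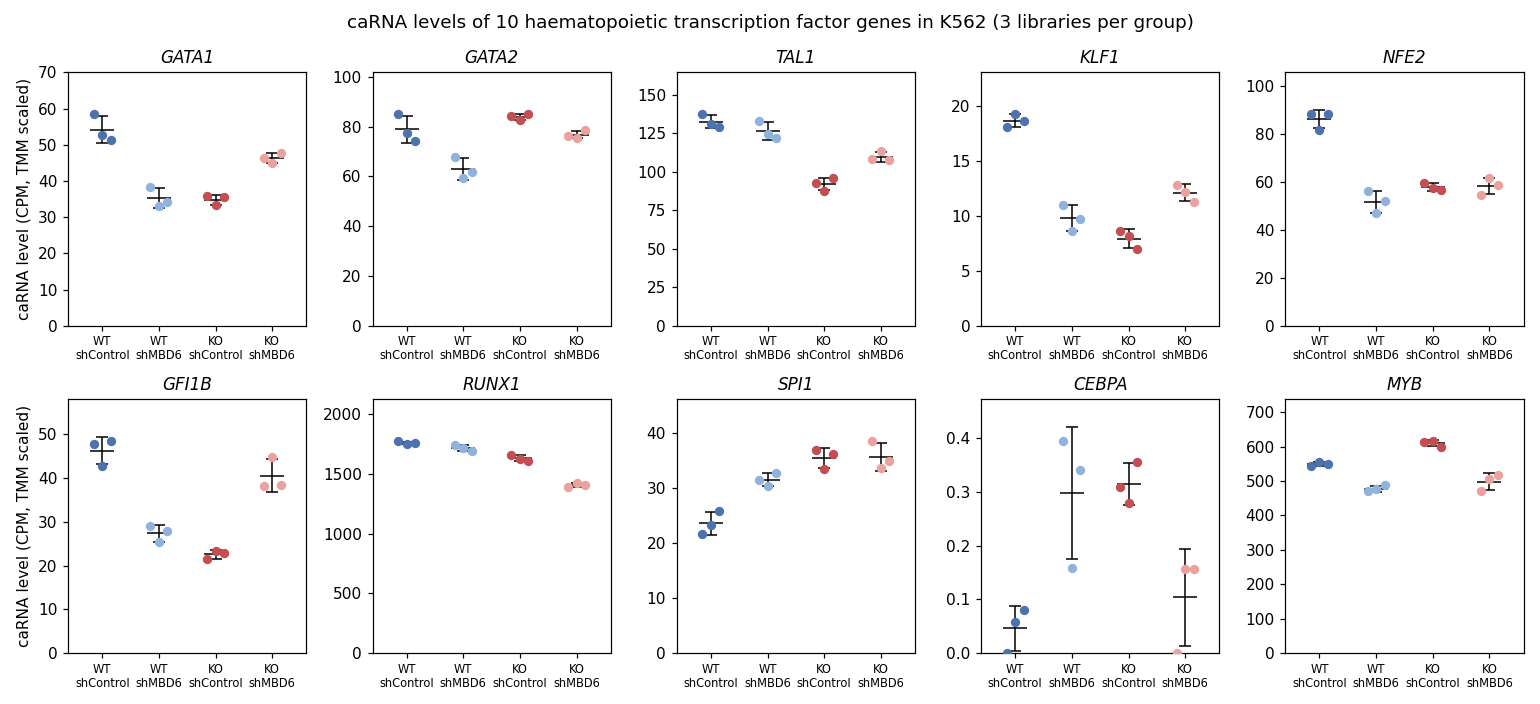
caRNA level of each of the 10 genes (CPM, TMM scaled, y axes from 0) in the 4 groups on the x axis. Points are libraries, and the black dash and bar give the mean ± SD (n = 3). GATA1, KLF1, NFE2 and GFI1B are highest in TET2 WT shControl (GATA1 at 51.3 to 58.5 CPM), SPI1 is lowest there (21.7 to 25.9 CPM), and CEBPA stays under 0.4 CPM throughout.

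Levels of the 10 genes were compared with each other only per kb. By gene span, the order in TET2 WT shControl was MYB at 14.5 CPM per kb, NFE2 at 9.67, TAL1 at 8.32, GATA1 at 6.97, KLF1 at 6.72, GATA2 at 5.73, RUNX1 at 1.45, SPI1 at 0.998, GFI1B at 0.971 and CEBPA at 0.0176 CPM per kb. Neighbours in that order whose libraries overlapped were GATA1 with KLF1 and SPI1 with GFI1B. MYB was first in all 4 groups, and GATA2 moved from rank 6 in TET2 WT shControl to rank 3 in TET2 KO shControl, where it overlapped TAL1. With exon length in place of span the order in TET2 WT shControl was RUNX1, MYB, NFE2, GATA1, TAL1, GATA2, SPI1, KLF1, GFI1B and CEBPA, so that the place of RUNX1, whose annotated span is 1217 kb, rests on the length used. The 10 identifiers carried other version numbers than those in the annotation that gave the lengths, and a start that moved between versions would change the spans. The lowest ratio to the olfactory background outside CEBPA was 4.03, for GFI1B in TET2 KO shControl.

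**Figure D2:**
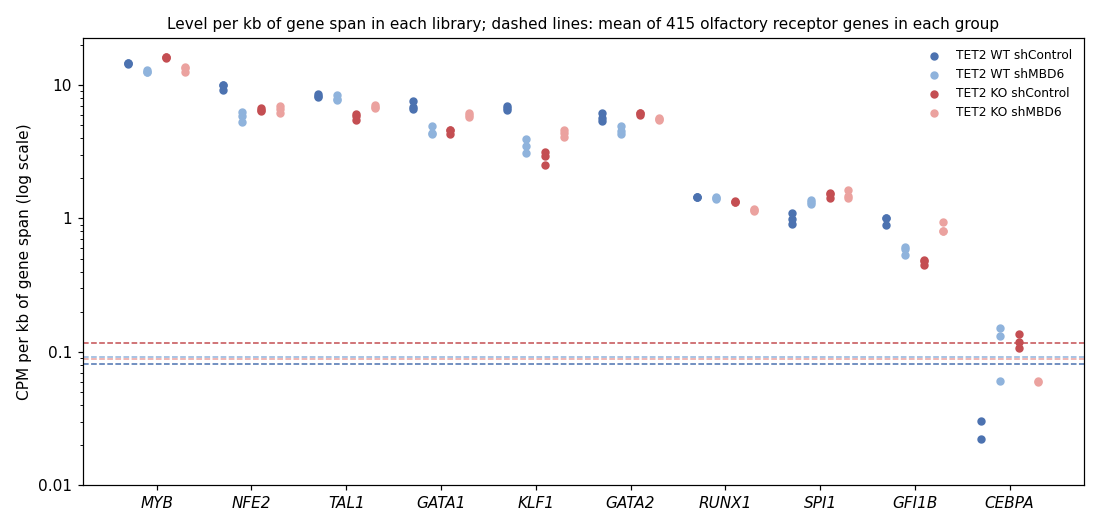
Level per kb of gene span (CPM per kb, log axis) of the 10 genes, ordered by their mean in TET2 WT shControl. Points are libraries, coloured by group, and the dashed lines give the mean of 415 olfactory receptor genes in each group (0.0809 to 0.117 CPM per kb). The 2 libraries with 0 CEBPA counts cannot be drawn on a log axis, and CEBPA is the gene whose points lie around the dashed lines.

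TET2 KO was compared with TET2 WT in shControl cells to ask how the lineage factors differed between the genotypes without the MBD6 hairpin. MBD6 itself was lower in TET2 KO in this comparison (log2 change -0.46 ± 0.08 SE, adjusted p = 6.49e-06), and its part was not tested. The red-cell factors fell and SPI1 rose. KLF1 fell by 1.24 ± 0.11 on the log2 scale (2.35-fold lower, adjusted p = 3.28e-11) and GFI1B fell by 1.04 ± 0.07 (2.05-fold lower, adjusted p = 5.61e-14). GATA1 fell by 0.63 ± 0.06 (adjusted p = 3.15e-10), NFE2 fell by 0.57 ± 0.06 (adjusted p = 1.88e-10) and TAL1 fell by 0.52 ± 0.04 (adjusted p = 1.08e-12). SPI1 was higher by 0.59 ± 0.07 (adjusted p = 2.59e-08).

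The progenitor factors moved little in that comparison. RUNX1 fell by 0.11 ± 0.02 (adjusted p = 2.09e-05) and MYB was higher by 0.15 ± 0.03 (adjusted p = 3.40e-05), although with total gene counts as library sizes MYB was at -0.03 (adjusted p = 0.416). GATA2 differed by 0.09 ± 0.05 (adjusted p = 0.141). CEBPA, at background, had a log2 change of 2.70 ± 1.12 (adjusted p = 0.0487). That call held in 8 of 19 alternatives, and it is 1 of the 3 higher calls counted next. In all, 9 of the 10 genes passed the test, 3 higher and 6 lower, against 45.8% of all genes tested and 72.9% of the 9293 genes with a mean of at least 10 CPM, to which 9 of the 10 belong. Of all genes 23.5% were called higher and 22.3% lower, and of genes of at least 10 CPM 39.1% and 33.9%. The ranges of the groups were separate for 9 genes, as they were for 56.1% of all genes tested and 78.0% of those of at least 10 CPM. The median log2 change was -0.32 over the 10 genes, -0.05 over all genes tested and 0.02 over genes of at least 10 CPM. With total gene counts, 1 was higher and 6 were lower, and the calls over all genes went from 6127 higher and 5794 lower to 4526 higher and 8283 lower.

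The comparison of shMBD6 with shControl in TET2 WT addressed MBD6 knockdown with TET2 present. Again the red-cell factors apart from TAL1 fell and SPI1 rose. KLF1 fell by 0.93 ± 0.11 (1.90-fold lower, adjusted p = 1.88e-08), GFI1B fell by 0.75 ± 0.07 (adjusted p = 1.92e-10), NFE2 fell by 0.73 ± 0.06 (adjusted p = 1.12e-12) and GATA1 fell by 0.62 ± 0.06 (adjusted p = 8.80e-10). SPI1 was higher by 0.41 ± 0.07 (1.33-fold, adjusted p = 1.59e-05). This comparison and the previous comparison share their TET2 WT shControl libraries, so that their values stand side by side and their likeness is not a result.

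GATA2 fell by 0.32 ± 0.05 (adjusted p = 2.25e-06) and MYB fell by 0.20 ± 0.03 (adjusted p = 4.14e-07). The median of genes of at least 10 CPM was -0.19, and with scaling factors from those genes alone MYB was at -0.02 (adjusted p = 0.549) and GATA2 at -0.14 (adjusted p = 0.0216). TAL1 differed by -0.07 ± 0.04 (adjusted p = 0.202) and RUNX1 by -0.04 ± 0.02 (adjusted p = 0.161), and both turned positive under each other scaling, reaching 0.11 (adjusted p = 0.0280) and 0.14 (adjusted p = 2.48e-07). CEBPA had a log2 change of 2.62 ± 1.12 (adjusted p = 0.0583). Of the 10 genes, 7 passed, 1 higher and 6 lower, against 42.4% of all genes tested, and against 74.8% of genes of at least 10 CPM, of which 18.3% were higher and 56.6% lower. Of all genes tested 17.7% were higher and 24.7% lower. Ranges were separate for 9 of the 10 genes, for 57.6% of all genes tested and for 78.8% of genes of at least 10 CPM. With scaling factors from genes of at least 10 CPM, 4 of the 10 were higher and 5 lower. Over all genes the same change of scaling took the calls from 4615 higher and 6431 lower to 6711 higher and 3679 lower.

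In TET2 KO, the libraries labelled shMBD6 had higher levels of the red-cell factors apart from NFE2 than those labelled shControl. GFI1B rose by 0.85 ± 0.07 on the log2 scale (1.80-fold, adjusted p = 2.12e-11), KLF1 rose by 0.61 ± 0.11 (1.53-fold, adjusted p = 4.32e-05), GATA1 rose by 0.41 ± 0.06 (1.33-fold, adjusted p = 3.08e-06) and TAL1 rose by 0.25 ± 0.04 (1.19-fold, adjusted p = 7.78e-06). MYB fell by 0.29 ± 0.03 (adjusted p = 2.77e-10) and RUNX1 fell by 0.22 ± 0.02 (adjusted p = 1.18e-10). GATA2 fell by 0.13 ± 0.05 (adjusted p = 0.0411), a call that was lost in 10 of 20 alternatives.

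NFE2 (0.01 ± 0.06, adjusted p = 0.914) and SPI1 (0.01 ± 0.07, adjusted p = 0.970) did not pass, nor did CEBPA (-1.57 ± 1.07, adjusted p = 0.272). Of the 10 genes, 7 passed, 4 higher and 3 lower, against 36.4% of all genes tested (15.7% higher, 20.6% lower) and 65.5% of genes of at least 10 CPM (33.2% higher, 32.4% lower). Ranges were separate for 8 of the 10, for 43.8% of all genes tested and for 70.2% of genes of at least 10 CPM. Under total gene counts the 10 split into 4 higher and 2 lower, and the calls over all genes went from 4094 higher and 5370 lower to 6048 higher and 4047 lower. The median of genes of at least 10 CPM was 0.02. As MBD6 caRNA was not lower in these libraries, the differences cannot be assigned to MBD6 from these values.

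The TET2 KO and TET2 WT libraries labelled shMBD6 were compared last among the pairs of groups. GFI1B was higher in TET2 KO by 0.56 ± 0.07 on the log2 scale (adjusted p = 6.05e-08), GATA1 by 0.39 ± 0.06 (adjusted p = 3.42e-06) and GATA2 by 0.28 ± 0.05 (adjusted p = 1.32e-05). RUNX1 fell by 0.29 ± 0.02 (adjusted p = 3.87e-14) and TAL1 fell by 0.21 ± 0.04 (adjusted p = 8.02e-05). KLF1 (0.31 ± 0.11, adjusted p = 0.0196), NFE2 (0.17 ± 0.06, adjusted p = 0.00997) and SPI1 (0.18 ± 0.07, adjusted p = 0.0326) were also called higher. MYB differed by 0.06 ± 0.03 (adjusted p = 0.0664) and CEBPA by -1.50 ± 1.07 (adjusted p = 0.234).

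The count of 8 genes, 6 higher and 2 lower, stood against 58.6% of all genes tested and 78.8% of genes of at least 10 CPM, of which 62.8% were higher. Of all genes tested 30.1% were higher and 28.5% lower. Ranges were separate for 8 of the 10, for 64.0% of all genes tested and for 78.8% of genes of at least 10 CPM. The median log2 change of genes of at least 10 CPM was 0.26, above the values of NFE2 and SPI1 and close to those of GATA2 and KLF1. Over the 20 alternatives the GATA2 change ran from 0.06 to 0.34, and its call held in 19. With DESeq2 size factors 5 genes passed, 3 higher and 2 lower, and the KLF1, NFE2 and SPI1 calls were lost. With scaling factors from genes of at least 10 CPM, 2 were higher and 3 lower, NFE2 was at -0.05, SPI1 at -0.04 and MYB at -0.16. The GFI1B, GATA1, TAL1 and RUNX1 calls held under all 20 alternatives. Without TET2 WT shMBD6 replicate 2 the count was 5.

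**Figure D3:**
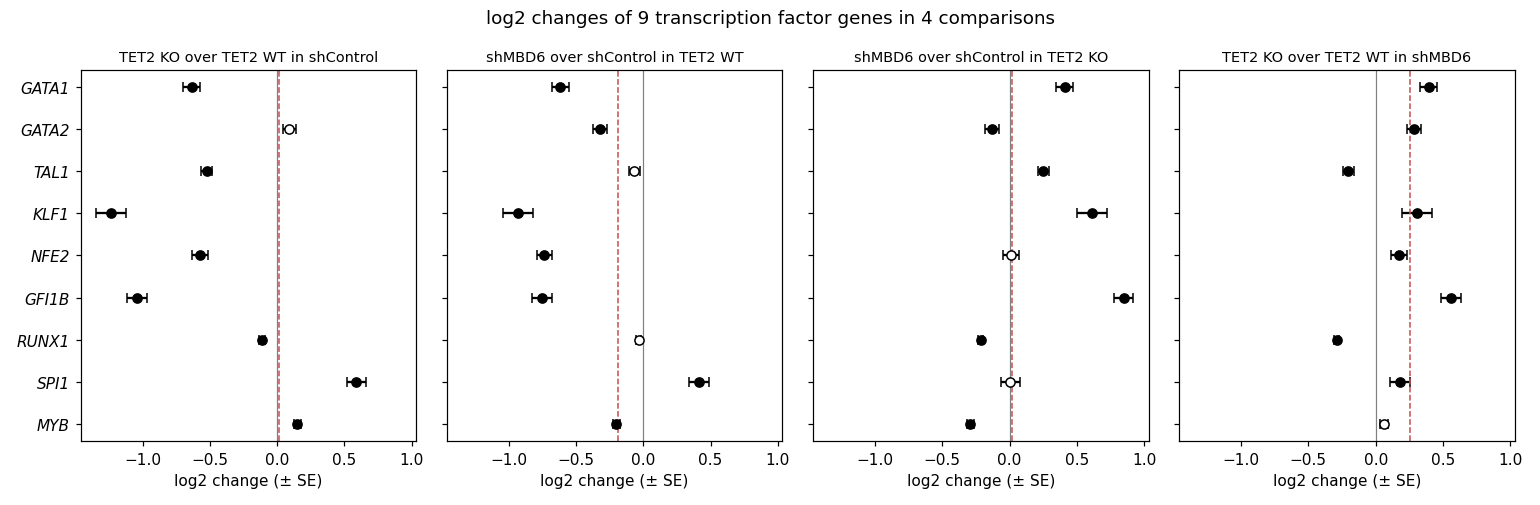
log2 change ± SE (x axis) of 9 genes in the 4 comparisons between groups (CEBPA, at background, is left out). Filled circles passed the test at an adjusted p under 0.05, and the dashed red line is the median of genes of at least 10 CPM (0.02, -0.19, 0.02 and 0.26). KLF1, GFI1B, GATA1 and NFE2 lie to the left of the dashed line in the panels for TET2 KO in shControl and for shMBD6 in TET2 WT, and KLF1, GFI1B and GATA1 lie to its right in the panel for shMBD6 in TET2 KO.

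The difference between the shMBD6 effects was tested as an interaction, the effect in TET2 KO minus that in TET2 WT, by the labels. It was positive for every red-cell factor. GFI1B had the highest value at 1.60 ± 0.10 on the log2 scale (adjusted p = 7.75e-15), followed by KLF1 at 1.54 ± 0.16 (adjusted p = 5.43e-10), GATA1 at 1.03 ± 0.09 (adjusted p = 1.52e-11), NFE2 at 0.75 ± 0.08 (adjusted p = 1.35e-09) and TAL1 at 0.32 ± 0.06 (adjusted p = 2.48e-05). For SPI1 it was -0.41 ± 0.10 (adjusted p = 0.00116). GATA2 (0.19 ± 0.07, adjusted p = 0.0231) and RUNX1 (-0.18 ± 0.03, adjusted p = 2.29e-06) differed by less, and MYB did not pass (-0.09 ± 0.04, adjusted p = 0.0580). CEBPA was at -4.19 ± 1.55 (adjusted p = 0.0242) on counts of 0 to 38.

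In all, 9 of the 10 genes passed, 6 higher and 3 lower, beside 49.4% of all genes tested (23.9% higher, 25.5% lower) and 78.0% of genes of at least 10 CPM, of which 50.2% were higher and 27.8% lower. The median interaction was -0.19 over all genes tested and 0.20 over genes of at least 10 CPM, so that GATA2 lay at the latter median and GFI1B, KLF1 and GATA1 well above it. With scaling factors from genes of at least 10 CPM, 4 were higher and 4 lower, and TAL1 (0.13, adjusted p = 0.0635) and GATA2 (0.00, adjusted p = 0.972) were no longer called. MBD6 itself had an interaction of 0.75 ± 0.11 (adjusted p = 4.51e-07).

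Ratios of counts within a library do not depend on scaling. The ratio of GATA1 to GATA2, which rises as red-cell precursors mature, was 0.689, 0.682 and 0.689 in TET2 WT shControl, 0.567, 0.559 and 0.552 in TET2 WT shMBD6, 0.424, 0.402 and 0.419 in TET2 KO shControl and 0.607, 0.598 and 0.609 in TET2 KO shMBD6. No 2 groups overlapped, and TET2 KO shControl was lowest. The ratio of SPI1 to GATA1 was 0.371 to 0.504 in TET2 WT shControl, 0.818 to 0.960 in TET2 WT shMBD6, 1.01 to 1.03 in TET2 KO shControl and 0.733 to 0.833 in TET2 KO shMBD6. Here TET2 WT shMBD6 and TET2 KO shMBD6 overlapped, and TET2 KO shControl was the group in which SPI1 counts exceeded GATA1 counts. Both are counts over genes of unequal length, so that the ratios compare groups and not the amounts of the factors.

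**Figure D4:**
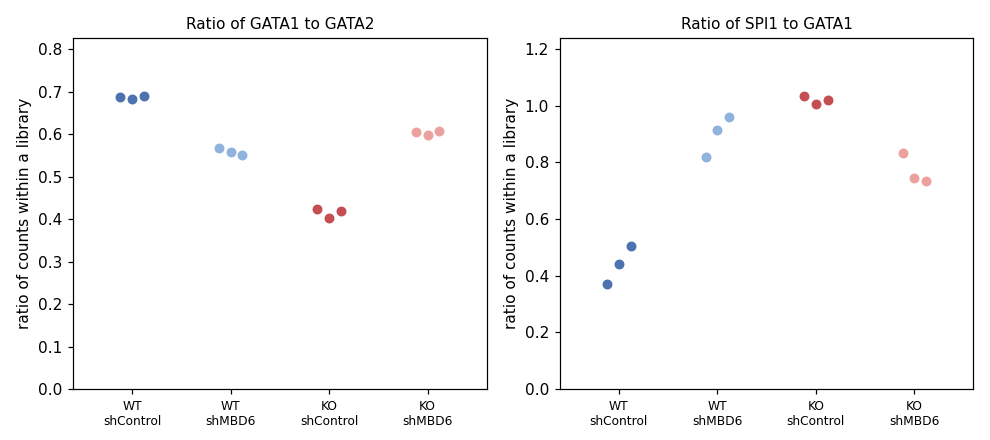
Ratio of GATA1 to GATA2 counts (left) and of SPI1 to GATA1 counts (right) in each library (y axes from 0), by group. Points are libraries, 3 per group. The GATA1 to GATA2 ratio is lowest in TET2 KO shControl (0.402 to 0.424) and the SPI1 to GATA1 ratio is highest there (1.01 to 1.03).

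The proteins that work with these factors were read from a list of 14 genes. LMO2, the bridging protein of the GATA1 and TAL1 complex, was at 247 ± 2.70 CPM (SD, n = 3) in TET2 WT shControl, 92.8 ± 3.09 CPM in the TET2 WT shMBD6 group, 54.7 ± 2.37 CPM in the TET2 KO shControl group and 100.4 ± 3.62 CPM in the TET2 KO shMBD6 group. It fell by 2.17 ± 0.04 on the log2 scale in TET2 KO shControl (adjusted p = 6.21e-30) and by 1.41 ± 0.04 with shMBD6 in TET2 WT (adjusted p = 3.31e-24), and in TET2 KO it rose by 0.87 ± 0.04 in the libraries labelled shMBD6 (adjusted p = 2.20e-18). LDB1, which LMO2 binds, fell by 0.72 ± 0.05 and 0.70 ± 0.05 in the same pair of comparisons (adjusted p = 9.93e-15 and 4.66e-14) and rose by 0.45 ± 0.05 in TET2 KO (adjusted p = 1.77e-09). These comparisons share control libraries, and LMO2 and LDB1 were named for the size of their changes.

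The other partners varied. MAFK and MAFG, small MAF partners of NFE2, fell by 0.36 ± 0.13 and 0.35 ± 0.06 in TET2 KO shControl (adjusted p = 0.0216 and 1.67e-05) and by 0.44 ± 0.13 and 0.29 ± 0.06 with shMBD6 in TET2 WT (adjusted p = 0.00689 and 0.000252). In TET2 KO they rose by 0.46 ± 0.13 and 0.37 ± 0.06 in the libraries labelled shMBD6 (adjusted p = 0.00492 and 1.01e-05). TCF12, an E protein that pairs with TAL1, rose by 0.72 ± 0.03 in TET2 KO shControl (adjusted p = 3.17e-22), and LYL1, a close relative of TAL1, rose by 0.44 ± 0.08 (adjusted p = 2.56e-05). CBFA2T3, a corepressor of the TAL1 complex, rose by 0.21 ± 0.03 with shMBD6 in TET2 WT (adjusted p = 3.93e-06) and fell by 0.62 ± 0.03 in TET2 KO (adjusted p = 1.64e-16). SSBP3, which stabilises LDB1, changed by 0.08 ± 0.03 (adjusted p = 0.00831) and fell by 0.47 ± 0.03 (adjusted p = 3.19e-16). In TET2 KO over TET2 WT among shMBD6 libraries KDM1A, the demethylase recruited by GFI1B, rose by 0.55 ± 0.03 (adjusted p = 1.07e-15), and ZFPM1, the cofactor of GATA1, fell by 0.99 ± 0.05 (adjusted p = 5.91e-18).

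Of the 14 partners, 7 were higher and 6 lower in TET2 KO shControl, 2 higher and 8 lower with shMBD6 in TET2 WT, 4 higher and 7 lower with shMBD6 in TET2 KO, and 8 higher and 3 lower in TET2 KO among shMBD6 libraries. Their medians in these comparisons were 0.04, -0.15, -0.10 and 0.21. The interaction was positive for 6 and negative for 5, led by LMO2 at 2.29 ± 0.06 (adjusted p = 4.87e-26) and LDB1 at 1.15 ± 0.07 (adjusted p = 5.97e-16) on one side and CBFA2T3 at -0.83 ± 0.05 (adjusted p = 3.38e-16) on the other. The list as a whole thus had no single direction.

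**Figure D5:**
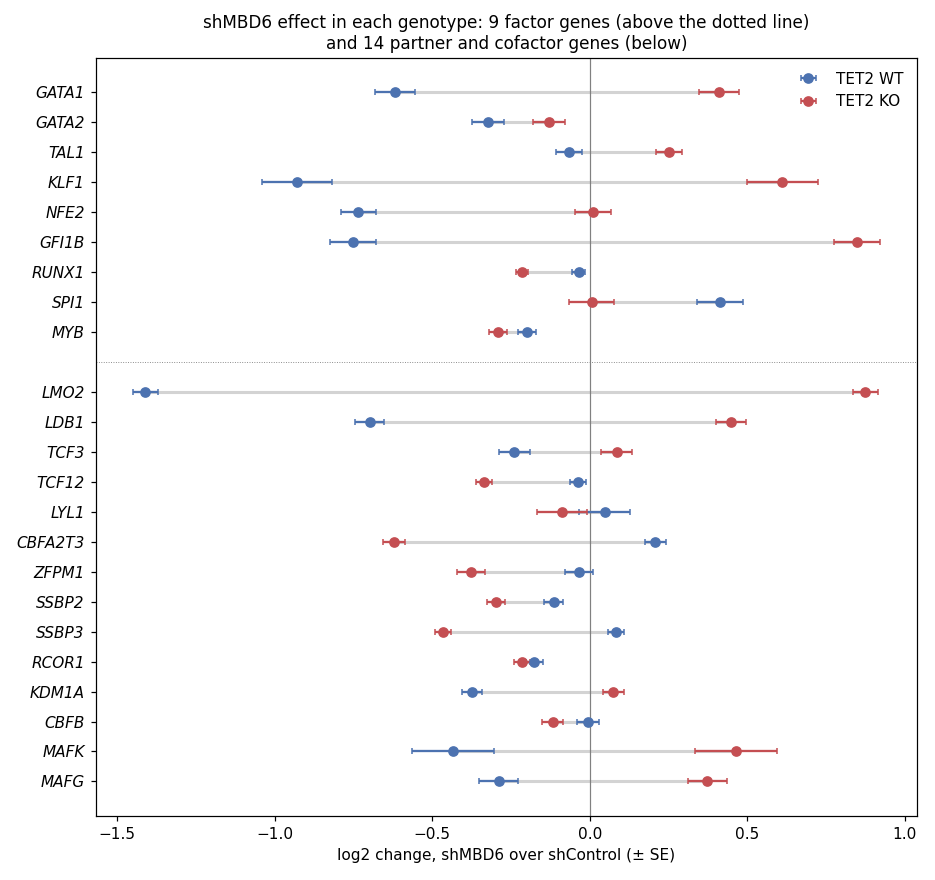
log2 change ± SE of shMBD6 over shControl (x axis) in TET2 WT (blue) and in TET2 KO by the labels (red), for 9 factor genes above the dotted line and 14 partner and cofactor genes below it. Blue and red lie on opposite sides of 0, with both changes called, for genes that include GATA1, KLF1, GFI1B, LMO2, LDB1, MAFK and MAFG, and LMO2 has the longest line (-1.41 in TET2 WT, 0.87 in TET2 KO).

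Among 22 other blood transcription factors, 7 were higher and 14 lower in TET2 KO shControl, with a median of -0.31, and 7 were higher and 12 lower with shMBD6 in TET2 WT, with a median of -0.17. In TET2 KO with shMBD6 4 were higher and 9 lower, and in TET2 KO over TET2 WT among shMBD6 libraries 7 were higher and 10 lower. SOX6, a factor of red-cell maturation, fell by 0.87 ± 0.03 with shMBD6 in TET2 WT (adjusted p = 7.73e-20) and rose by 0.65 ± 0.04 in TET2 KO (adjusted p = 1.64e-16). KLF3, a repressor that acts beside KLF1, fell by 0.77 ± 0.04 (adjusted p = 7.09e-16) and rose by 0.31 ± 0.04 (adjusted p = 5.83e-07). Their interactions were 1.52 ± 0.05 and 1.08 ± 0.06 (adjusted p = 1.17e-22 and 4.63e-16). GFI1, the paralogue of GFI1B in granulocytes and lymphocytes, rose in TET2 KO shControl from 0.679 ± 0.0666 to 5.16 ± 1.15 CPM (log2 change 2.93 ± 0.25, adjusted p = 7.89e-12), where GFI1B fell. ERG, an ETS factor of stem cells, rose from 2.42 ± 0.454 to 7.51 ± 0.649 CPM with shMBD6 in TET2 WT (1.63 ± 0.22, adjusted p = 2.39e-07). CEBPE, IRF8 and RUNX3 were also called with large changes, on means of at most 2.54 CPM and with libraries at 0 counts for each of them.

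The genes that red-cell factors control were described in a list of 18 genes, 16 of which were tested. Of these, 2 were higher and 11 lower in TET2 KO shControl (median -1.09), 2 higher and 7 lower with shMBD6 in TET2 WT (median -0.26), 8 higher and 2 lower with shMBD6 in TET2 KO (median 0.49) and 4 higher and 6 lower in TET2 KO among shMBD6 libraries (median -0.23). Their summed level was 1786 to 1839 CPM in the TET2 WT shControl group, 1371 to 1390 CPM in the TET2 WT shMBD6 group, 1112 to 1117 CPM in the TET2 KO shControl group and 1386 to 1398 CPM in the TET2 KO shMBD6 group. Most of the sum came from ANK1, a membrane skeleton protein (805 CPM in the TET2 WT shControl group), and TFRC, the transferrin receptor (578 CPM), which were singled out after their levels were seen.

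HBG1, a fetal globin gene that overlaps 1 other gene on its strand, fell with shMBD6 in TET2 WT from 6.63 ± 0.314 to 1.75 ± 0.0759 CPM (log2 change -1.92 ± 0.26, adjusted p = 1.47e-07) and rose in TET2 KO from 0.990 ± 0.224 to 2.77 ± 1.31 CPM (1.49 ± 0.27, adjusted p = 2.56e-05). ALAS2, the first enzyme of haem synthesis in red cells, and SLC25A37, which carries iron into mitochondria, went the other way. They rose in TET2 KO shControl by 0.31 ± 0.07 and 0.18 ± 0.03 (adjusted p = 0.000452 and 9.23e-06), and with shMBD6 they rose in TET2 WT by 0.56 ± 0.07 and 0.34 ± 0.03 (adjusted p = 3.31e-08 and 2.98e-11) and fell in TET2 KO by 0.51 ± 0.07 and 0.34 ± 0.03 (adjusted p = 3.65e-07 and 5.30e-11). The red-cell list therefore did not move as a block. AHSP and HBA2 were called lower in TET2 KO shControl on at most 91 and 69 counts per library. HBA1 and HBA2 are near-identical copies, and reads aligned to several places were not counted for any gene.

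Markers of other lineages were sparse. Of 14 granulocyte and monocyte genes 8 were tested, and 3 were higher and none lower in TET2 KO shControl as in TET2 WT with shMBD6, where SPI1 was higher too. ITGAM, an integrin of granulocytes and monocytes, rose from 1.12 ± 0.197 to 5.11 ± 0.751 CPM in the TET2 KO shControl group (log2 change 2.19 ± 0.23, adjusted p = 9.39e-10), and CSF3R, the granulocyte growth factor receptor, rose from 2.71 ± 0.392 to 9.17 ± 0.337 CPM (1.76 ± 0.17, adjusted p = 7.78e-11). With shMBD6 in TET2 WT they rose by 1.11 ± 0.23 and 0.95 ± 0.17 (adjusted p = 0.000159 and 1.52e-05). The summed level of the 14 genes was 22.3 to 23.2, 34.3 to 39.7, 53.8 to 57.1 and 45.8 to 47.5 CPM in the 4 groups. CD33, a lectin of myeloid cells singled out after its level was seen, made up most of that sum at 16.8, 26.1, 38.3 and 33.7 CPM, and the granule genes MPO, ELANE, PRTN3 and CTSG were at most 0.422 CPM in any group.

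KIT, the stem cell factor receptor and a gene that GATA1 represses as red cells mature, rose in TET2 KO shControl from 0.827 ± 0.410 to 28.4 ± 0.698 CPM (log2 change 5.05 ± 0.18, adjusted p = 7.34e-21). With shMBD6 it rose in TET2 WT to 2.79 ± 0.0220 CPM (1.70 ± 0.19, adjusted p = 7.49e-09) and fell in TET2 KO to 19.3 ± 1.13 CPM (-0.56 ± 0.14, adjusted p = 0.00208). It was the only gene of the 6 tested stem and progenitor genes that was called in TET2 KO shControl. TUBB1, a platelet tubulin, fell in TET2 KO shControl from 13.1 ± 1.26 to 0.533 ± 0.235 CPM (-4.64 ± 0.29, adjusted p = 6.90e-15) and with shMBD6 in TET2 WT to 2.14 ± 0.561 CPM (-2.61 ± 0.25, adjusted p = 2.79e-10), and in TET2 KO it rose with shMBD6 to 4.10 ± 1.52 CPM (2.97 ± 0.28, adjusted p = 3.54e-10). Of 11 megakaryocyte and platelet genes 5 were tested, and 3 fell in TET2 KO shControl, TUBB1 and VWF among them. Of the 10 tested T-cell and B-cell genes 2 were lower in TET2 KO shControl and none higher, and the summed level of that list was 29.8 to 44.4 CPM over the 12 libraries.

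The 7 epithelial, fibroblast, endothelial and liver genes summed to 24.3 to 25.8 CPM in the TET2 WT shControl group, 14.7 to 15.3 with shMBD6 in TET2 WT, 18.5 to 21.1 in TET2 KO shControl and 31.7 to 33.0 in TET2 KO shMBD6. In TET2 KO shControl 1 was higher and 1 lower, with shMBD6 in TET2 WT 1 was higher and 2 lower, with shMBD6 in TET2 KO 3 were higher and 1 lower, and in TET2 KO among shMBD6 libraries 2 were higher and 2 lower. PECAM1, an adhesion molecule of endothelial cells, platelets and leukocytes, was at 18.6, 7.58, 11.5 and 20.3 CPM in the 4 groups and made up most of the sum. EPCAM, an epithelial adhesion molecule, fell by 0.92 ± 0.17 with shMBD6 in TET2 WT (adjusted p = 3.25e-05) and rose by 0.91 ± 0.16 in TET2 KO (adjusted p = 2.79e-05). ALB, CDH1, CDH5 and COL1A2 were at most 1.29 CPM in any group. The part of these genes in the results above was not tested.

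Genes that overlap the 10 on the genome were read next, since reads of a strand shared by 2 genes are left out. Of 7602 genes that lie wholly within another gene of their own strand, 95.3% had 0 counts in every library, against 21.9% of 10413 within a gene of the opposite strand. Counts of this kind arise when reads are assigned by strand over whole gene spans, in which case an opposite-strand neighbour takes no reads from a factor gene. GATA2-AS1, the antisense neighbour of GATA2, fell by 0.45 in TET2 KO shControl (adjusted p = 9.01e-11), where GATA2 differed by 0.09, and by 0.41 with shMBD6 in TET2 WT (adjusted p = 1.20e-09), where GATA2 fell by 0.32. TSC1, which runs into GFI1B from the opposite strand, was higher by 0.36 in TET2 KO shControl (adjusted p = 5.19e-10), where GFI1B fell. RUNX1 overlaps a same-strand long non-coding RNA, ENSG00000230794, over 19804 bases, and that RNA had 0 counts in every library.

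The genes around each factor were summarised by a median. The median log2 change in TET2 KO shControl of the tested genes of at least 1 CPM within 500 kb was -0.26 for the 31 around KLF1, -0.11 for the 20 around GFI1B, -0.09 for the 32 around GATA1 and 0.35 for the 13 around NFE2. With shMBD6 in TET2 WT these medians were -0.30, 0.00, -0.24 and -0.15. GCDH, next to KLF1, fell by 0.44 and 0.58 in the same pair of comparisons (adjusted p = 0.000134 and 2.68e-06), and HDAC6, next to GATA1, fell by 0.26 and 0.13 (adjusted p = 0.000119 and 0.0444). On the other side of KLF1, DNASE2 was at 0.33 and -0.19 (adjusted p = 0.104 and 0.374). On the other side of GATA1, RNU6-29P, with a mean of 0.326 CPM, was at 2.41 and 1.33 (adjusted p = 0.00885 and 0.156). CBX5, next to NFE2, was higher by 0.63 and 0.15 (adjusted p = 2.16e-14 and 0.00388), and COPZ1 on the other side was at -0.003 and -0.15 (adjusted p = 0.986 and 0.373). MYB had the sign of both flanking genes in TET2 KO shControl, where HBS1L was at 0.33 and AHI1 at 0.44 (adjusted p = 6.33e-10 and 1.94e-13), and also in TET2 KO with shMBD6, where they were at -0.25 and -0.42 (adjusted p = 5.04e-07 and 1.08e-12). With shMBD6 in TET2 WT the flanking genes parted, HBS1L at -0.14 and AHI1 at 0.13 (adjusted p = 0.00112 and 0.000875). They also parted in TET2 KO over TET2 WT among shMBD6 libraries, at 0.23 and -0.12 (adjusted p = 1.17e-06 and 0.00196).

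KLF1 and GFI1B were the genes whose group means spanned at least 1 on the log2 scale after 0.25 CPM was added, by which CEBPA spanned 0.94, and for each the most similar protein-coding genes were sought among 16265 by the root mean square difference of centred log2 CPM over the 12 libraries. For KLF1 these were TSPAN14 (0.113), SLC22A4 (0.119) and GADD45A (0.122). TSPAN14, a tetraspanin, was at 207, 106, 91.8 and 133 CPM in the TET2 WT shControl group, TET2 WT shMBD6, TET2 KO shControl and TET2 KO shMBD6. For GFI1B they were ADAMTSL4 (0.0892), PROSER2 (0.103) and ST6GALNAC1 (0.107), and ADAMTSL4 was at 190.3, 107.9, 93.1 and 159.96 CPM. The libraries share 4 groups, so that these values describe likeness of profile only.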

How the data were processed

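Chromatin-associated RNA was measured in 12 K562 libraries. The authors deposited raw gene counts from a stranded library kit, with no spike-in lines in the tables, and the submitters' processing notes name Trimmomatic 0.39, HISAT2 2.2.1 and HTSeq 0.12.4. The files of other cells were not used here. Rows that name no gene were left out; reads assigned to no feature were 13.1% to 16.0% and reads aligned to several places 10.1% to 11.2% of all reads. Identifiers matched the GENCODE annotation for 99.1% of genes, and version numbers for 58.9%. Groups followed the labels. Counts were scaled by TMM, filtered with filterByExpr by group (minimum count 10) and tested with edgeR 4.0.16 (quasi-likelihood, robust, 1 term per group, all 12 libraries) in R 4.3.3, with Benjamini-Hochberg adjustment over all genes tested and calls at an adjusted p under 0.05. Errors of log2 changes are standard errors, and errors of levels are SDs of 3 libraries. Genes of a list were named when they were among the 2 called genes with the largest change in a direction. The factor genes and lists were chosen with earlier results of these data known. The fit was tested on simulated data. Alternatives were DESeq2 1.42.0, other scaling factors and filters, a replicate block, fits on the groups compared, exon length and leaving out each library. Intervals and floors cover counting error only. Values of 1 listed gene are not reported here.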

Additional observations from a re-analysis of the deposited data

Results flagged for a closer look

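The effect of shMBD6 over shControl differed between TET2 KO and TET2 WT for 9 of the 10 factor genes, by the interaction test of edgeR with adjustment over all genes tested. That test called 49.4% of all genes and 78.0% of genes of at least 10 CPM, to which 9 of the 10 belong. The values, as the log2 effect in TET2 KO minus that in TET2 WT, were 1.60 for GFI1B, 1.54 for KLF1, 1.03 for GATA1, 0.75 for NFE2, 0.32 for TAL1, 0.19 for GATA2, -0.18 for RUNX1, -0.41 for SPI1 and -4.19 for CEBPA. GATA2 and TAL1 were no longer called with scaling factors from genes of at least 10 CPM, and CEBPA had 0 to 38 counts. MBD6 had an interaction of 0.75, the TET2 KO libraries labelled shMBD6 having no less MBD6 than their controls, and its part in these values was not tested.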

How the results depend on the processing

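The numbers of factor genes called stayed within 1.5 times of those reported under the alternatives in every comparison except TET2 KO over TET2 WT in shMBD6. There the count of 8 became 5 with DESeq2 size factors, with scaling factors from genes of at least 10 CPM, with no filter, with a filter of 1 CPM in 3 libraries and with only the groups compared. Leaving out 1 library gave counts of 8 to 9 in TET2 KO over WT in shControl, 7 to 8 for shMBD6 in TET2 WT, 6 to 7 for shMBD6 in TET2 KO, 5 to 9 for TET2 KO over WT in shMBD6, the lowest without TET2 WT shMBD6 replicate 2, and 8 to 10 for the interaction. Directions turned mostly for small changes. In TET2 KO over WT in shControl with total gene counts, GATA2 was at -0.0867 and MYB at -0.0263. With shMBD6 in TET2 WT, TAL1 was at 0.0427, 0.0301, 0.112, 0.0379, 0.0150 and 0.0430 and RUNX1 at 0.0740, 0.0609, 0.143, 0.0692, 0.0459 and 0.0741 with DESeq2 size factors, total gene counts, scaling by genes of at least 10 CPM, no filter, the 1 CPM filter and DESeq2. With shMBD6 in TET2 KO, SPI1 was at -0.00449 with scaling by genes of at least 10 CPM. Leaving out 1 library gave -0.0519 to 0.0456 for SPI1, negative without TET2 KO shMBD6 replicate 1 or TET2 KO shControl replicate 2, and -0.0300 to 0.0536 for NFE2, negative without TET2 KO shMBD6 replicate 2 or TET2 KO shControl replicate 3. In TET2 KO over WT in shMBD6, MYB was at -0.0601, -0.0879, -0.160, -0.0481, -0.00953 and -0.0599 with DESeq2 size factors, total gene counts, scaling by genes of at least 10 CPM, the 1 CPM filter, only the groups compared and DESeq2, of which total gene counts (adjusted p = 0.00402), scaling by genes of at least 10 CPM (6.68e-06) and DESeq2 (0.0478) gave a call of lower MYB, and NFE2 and SPI1 were at -0.0482 and -0.0398 with scaling by genes of at least 10 CPM. The cause was not tested. No pairing of libraries by replicate number was seen, as deviations of same-numbered libraries correlated at -0.0174 to 0.0201 over 18 pairs. Such correlations cannot show that no culture or batch was shared. The replicate block left 48 of the values per gene on their side of the threshold and brought MYB past it in TET2 KO over WT in shMBD6 (0.06) and in the interaction (-0.09), with 8 genes becoming 9 and 9 becoming 10. CEBPA has no value under the 1 CPM filter. Depth limits what the CEBPA values can show.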
